A study of Mus musculus with 12 samples.

Results

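The transcription factors that drive epithelial-mesenchymal transition (EMT), Snai1, Snai2, Twist1, Twist2, Zeb1, Zeb2 and Ets1, were read in spheroids of NMuMG, an epithelial cell line from normal mouse mammary gland. All probes that carried the symbol of a listed factor were taken, without regard to their values. This gave 10 of the 25697 probes on the arrays and 6 of the 7 listed genes, among 17893 named genes in all. Ets1 had 3 probes, Snai1 and Zeb2 had 2 each, and Twist1, Twist2 and Zeb1 had 1 each. Snai2 had 0 probes in the table and was not analysed here.

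The study asked how these spheroids respond to TGFB1 and to GDF11, both secreted ligands of the TGF-beta family. One group received TGFB1 at 50 ng/mL, another GDF11 at 250 ng/mL, and the third serum-free medium with no ligand, and RNA was taken after 4 h. All 3 groups used the same line with no genetic change, grown for 6 days on Matrigel from 5000 cells per well and refed on day 4. Each group held 4 biological replicates, each made from the RNA of 2 pooled wells, so p-values measure the spread between cultures of 1 line. The doses of the 2 ligands differ, and a difference between them is a difference at these doses.

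EMT factors are DNA-binding proteins that shut down epithelial genes and open a mesenchymal programme. SNAI1 and SNAI2 are zinc-finger repressors and ZEB1 and ZEB2 are zinc-finger homeobox repressors, and both kinds bind E-boxes such as the ones in the promoter of Cdh1, which encodes E-cadherin. TWIST1 and TWIST2 are basic helix-loop-helix factors that also bind E-boxes, and ETS1 is an activator that binds GGAA motifs. NMuMG cells are a standard model of EMT induced by TGF-beta, in which SMAD2 and SMAD3 carry the signal from the receptors to such genes.

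The upstream sequences of Snai1 and Twist2 are shown because of their changes with TGFB1. Snai1 had the largest rise among the EMT factor probes. Twist2 was the factor called lower, though not in a second model described below. The sequences are the 250 bases before the gene start in RefSeq (GRCm38.p6), both on the plus strand. They lie at chr2:167537945-167538194 for Snai1 and chr1:91801211-91801460 for Twist2. Capitals mark the general E-box CANNTG, which reads the same way on both strands as a pattern.
Snai1: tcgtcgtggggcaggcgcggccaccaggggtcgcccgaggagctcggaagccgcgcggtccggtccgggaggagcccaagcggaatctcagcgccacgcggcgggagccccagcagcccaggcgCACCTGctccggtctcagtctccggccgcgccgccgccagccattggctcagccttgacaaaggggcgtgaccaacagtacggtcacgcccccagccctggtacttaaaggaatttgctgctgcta
Twist2: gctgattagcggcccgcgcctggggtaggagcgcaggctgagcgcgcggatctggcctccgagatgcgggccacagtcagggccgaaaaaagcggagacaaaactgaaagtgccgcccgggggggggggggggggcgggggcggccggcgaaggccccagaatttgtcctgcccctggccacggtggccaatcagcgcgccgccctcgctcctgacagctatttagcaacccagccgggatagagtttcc
The Snai1 window held 1 E-box, CACCTG, whose first base lies at −126 from the gene start. This is the form of E-box that SNAI and ZEB proteins bind. The Twist2 window held 0 matches to CANNTG. Of 32851 mouse windows of this length, 66.2% held a CANNTG, 17.2% held CAGGTG or CACCTG, and 42.2% held the SMAD motif CAGAC or its complement GTCTG. That SMAD motif had 0 matches in either window. A match or its absence describes these letters only, and no binding was measured.

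Arrays differed in mean raw intensity, and several of the EMT factor probes moved with a split of the arrays into 2 sets at the widest gap. The dim set, at 149 to 165 scanner units, held GDF11 replicate 1 and serum-free replicates 1, 2 and 4. The bright set, at 255 to 310 units, held the other 8 arrays, all 4 of TGFB1 among them. Mean intensity differed between TGFB1 and serum-free medium (two-sided exact permutation p = 0.0286, the smallest that 4 against 4 arrays allow), while p was 0.286 for GDF11 against serum-free medium. In a model that held the groups, limma called 45.8% of tested probes for bright against dim arrays. Values from a second model, which adds the set of the array as a factor (the brightness term), therefore stand beside the results. The term takes the shift of a probe to be equal in every group, and it has a single GDF11 array in the dim set, a single serum-free array in the bright set and 0 dim TGFB1 arrays to rest on. The share of probes with signal above background was 41.2% to 49.6% per array. The luminal markers Krt8, Krt18, Krt19, Cd24a, Foxa1, Muc1 and Areg were detected on all 12 arrays, while Elf5, Esr1, Gata3, Prlr, Csn2 and Wfdc18 were detected on none, and Csn3, Ltf and Pgr on 3, 2 and 1. Of 11 basal markers, Mylk was detected on 12 arrays, Acta2 on 11 and Krt14 on 10, and 7 on none, among them Krt5 and Trp63. Of 12 fibroblast markers, Fbln1 was detected on 12 arrays and 8 on none, among them Dcn, Lum, Col1a2 and Col3a1. Of 9 adipocyte markers, Pparg was detected on 12 arrays and Cidec on 8. Adipoq, Lep, Slc2a4 and Retn were detected on 1 array each, and Plin1, Fabp4 and Cfd on none. Endothelial and leukocyte markers were detected on at most 4 arrays each, and Ptprc on none.

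**Figure D1:**
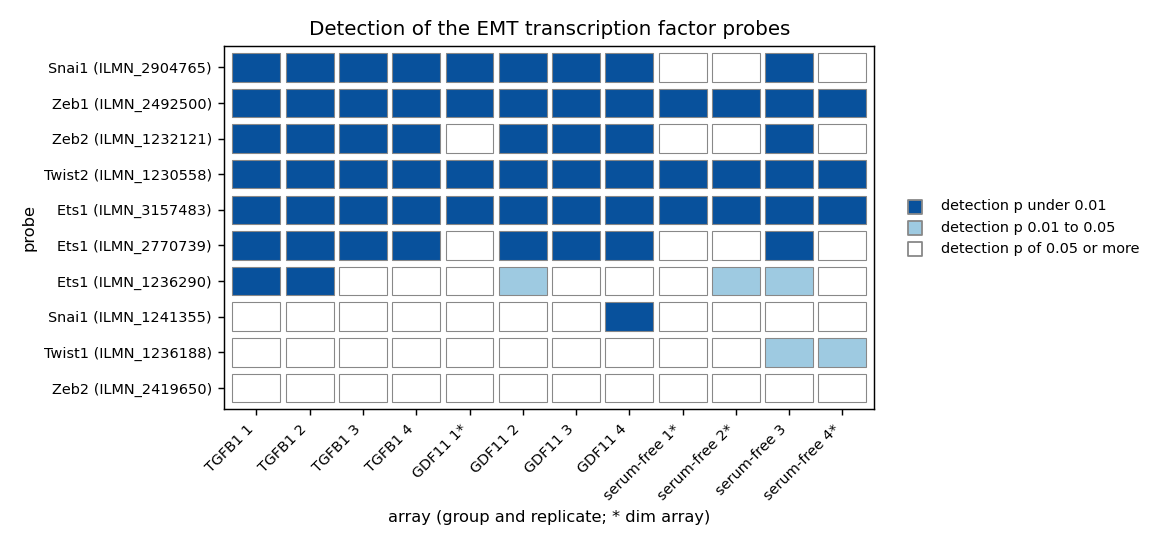
Detection of the 10 EMT factor probes (rows) on the 12 arrays (columns, grouped as TGFB1, GDF11 and serum-free, with an asterisk at dim arrays). Filled cells have a detection p-value under 0.05, the darker ones under 0.01. Probes of Zeb1, Twist2 and Ets1 were above background on all 12 arrays, and Snai1 on 4 TGFB1, 4 GDF11 and 1 serum-free array.

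Detection itself divided the factors. Probes of Zeb1 (ILMN_2492500), Twist2 (ILMN_1230558) and Ets1 (ILMN_3157483) had a detection p-value under 0.05 on all 12 arrays, so these 3 factors were expressed at a measurable level in serum-free spheroids. Snai1 (ILMN_2904765) was detected on 4 TGFB1, 4 GDF11 and 1 serum-free array. Zeb2 (ILMN_1232121) and another Ets1 probe (ILMN_2770739) were each detected on 4 TGFB1, 3 GDF11 and 1 serum-free array. In those 3 patterns the serum-free array above background was the bright replicate 3. Twist1 (ILMN_1236188) passed on 2 arrays, serum-free 3 and serum-free 4, and so on 0 arrays with either ligand. The remaining Snai1 probe (ILMN_1241355) passed on 1 array, GDF11 4, and the remaining Zeb2 probe (ILMN_2419650) on 0 arrays.

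The 7 probes detected on at least 4 arrays were tested among 12680 probes. With TGFB1, 6 of the 7 were called against serum-free medium, 5 higher and 1 lower, at a limma adjusted p under 0.05 over all tested probes. In that comparison 31.2% of all tested probes were called, 15.4% higher and 15.8% lower. With GDF11, 2 of the 7 were called against serum-free medium, both higher, where 8.34% of all probes were called and 4.4% were higher. Between TGFB1 and GDF11, 1 of the 7 was called, higher with TGFB1, where 0.631% of all probes were called and 0.331% were higher. Groups did not overlap for 5 of the 7 with TGFB1 and for 2 with GDF11 against serum-free medium, and for 2 between the ligands, where this held for 31.1%, 9.95% and 9.65% of all probes. The brightness term gave 3, 3 and 2 calls among the 7 in these 3 comparisons, against 13.2%, 8.48% and 1.96% of all probes. Leaving out serum-free replicate 3 gave 6, 3 and 1 calls, and leaving out GDF11 replicate 1 gave 6, 4 and 1. Without the former all serum-free arrays are dim, and without the latter all GDF11 arrays are bright. Ligand and brightness are then harder to tell apart. Calls over all 12680 tested probes rose as well. They rose to 5817 with TGFB1 without serum-free replicate 3, and to 4165 with GDF11 without GDF11 replicate 1. Scaling to a common median in place of quantile normalization turned the share of higher probes among all calls to 97.8%, 93.3% and 97.2%, against 49.4%, 52.8% and 52.5%. In the authors' deposited values this share was 70.9% for TGFB1 against GDF11. Quantile normalization gives all arrays the same distribution, which favours an even split, so that split does not speak for this scaling. Directions here are those after quantile normalization, and the choice between the scalings was not tested. A filter on detection favours probes that are high in some group, so these counts describe 7 of 10 probes.

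**Figure D2:**
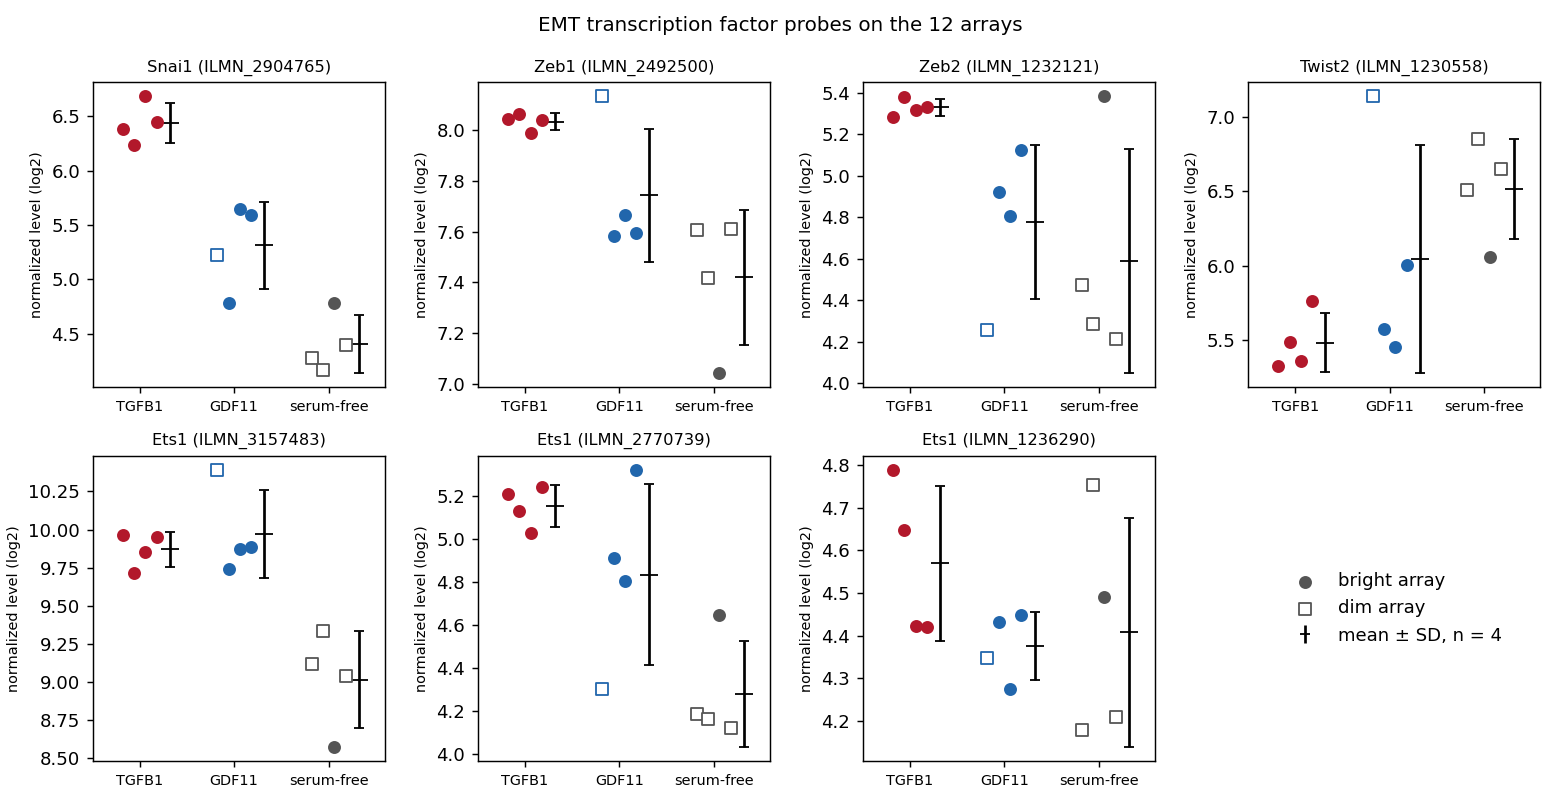
Normalized log2 level of the 7 tested EMT factor probes on every array (points, filled for bright and open squares for dim arrays) with the mean and SD of each group (n = 4), TGFB1 at the left, then GDF11, then serum-free medium. Snai1 lay at 6.24 to 6.69 with TGFB1, above all GDF11 and serum-free arrays, and Ets1 (ILMN_3157483) lay higher with either ligand than on any serum-free array.

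Snai1, the SNAIL repressor and a known target of TGF-beta signalling, rose with both ligands and more with TGFB1. On the normalized log2 scale the Snai1 probe ILMN_2904765 read 6.38, 6.24, 6.69 and 6.45 with TGFB1. It read 5.23, 4.78, 5.65 and 5.60 with GDF11, and 4.28, 4.17, 4.78 and 4.40 in serum-free medium. All TGFB1 arrays lay above all others, and the lowest GDF11 array (replicate 2, at 4.783) was level with the highest serum-free array (replicate 3, at 4.780). The raw signals were 181, 167, 205 and 181 units with TGFB1, 86.0, 105, 143 and 121 with GDF11, and 80.5, 78.8, 103 and 82.5 in serum-free medium. The offset added before the log pulls changes of such a dim probe toward 0, and 3 of the 4 serum-free arrays held it below detection. TGFB1 raised Snai1 4.09-fold over serum-free medium (log2 change 2.03 ± 0.20, SE, 95% interval 1.61 to 2.45, limma adjusted p = 7.46e-06). GDF11 raised it 1.88-fold (0.91 ± 0.20, interval 0.49 to 1.33, adjusted p = 0.0111). In spheroids read as a whole, a change per cell and a change in the share of cells with the transcript cannot be told apart.

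Of the 7 tested probes, that of Snai1 was the one called between the ligands without the brightness term. It was 2.18-fold higher with TGFB1 than with GDF11 (1.13 ± 0.20, interval 0.71 to 1.54, limma adjusted p = 0.0201). The brightness term kept the calls for TGFB1 (1.80 ± 0.23, adjusted p = 0.000115), for GDF11 (0.75 ± 0.20, adjusted p = 0.0333) and for TGFB1 against GDF11 (1.05, adjusted p = 0.00902). On the bright arrays alone, Snai1 was 1.10 higher with TGFB1 than with GDF11 (4 against 3 arrays, adjusted p = 0.00229), and it was 1.66 higher with TGFB1 and 0.56 higher with GDF11 than on the single bright serum-free array. On the dim arrays the single GDF11 array was 0.95 above the 3 serum-free arrays. Such differences against or of 1 array are given here as values without a test. The call for GDF11 was lost with median scaling (adjusted p = 0.195), with cyclic loess (adjusted p = 0.2) and in the authors' deposited values (adjusted p = 0.0751), always with a positive difference. The call between the ligands was lost without GDF11 replicate 2 (adjusted p = 0.0599) and without TGFB1 replicate 1, 2, 3 or 4 (0.0656, 0.0514, 0.0966 and 0.0751). The other Snai1 probe, ILMN_1241355, stayed at 4.15 to 4.73 on all arrays, near the lowest detectable level of 4.43 to 4.76. Without the filter its difference was −0.01 for TGFB1 (adjusted p = 0.971) and 0.23 for GDF11 (adjusted p = 0.339) against serum-free medium, so the probes of this gene did not read alike.

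Zeb1, a repressor of E-cadherin and of the miR-200 family, was measurable on every array and higher with TGFB1. Its levels were 8.04, 8.06, 7.99 and 8.04 with TGFB1, 8.13, 7.58, 7.66 and 7.60 with GDF11, and 7.61, 7.42, 7.04 and 7.61 in serum-free medium. The 4 TGFB1 arrays stayed within a narrow band above every serum-free array, and GDF11 replicate 1, a dim array, was the highest of all. TGFB1 raised Zeb1 1.53-fold over serum-free medium (0.61 ± 0.16, interval 0.28 to 0.95, limma adjusted p = 0.0114). The change with GDF11 was 0.32 ± 0.16 (interval −0.01 to 0.66, adjusted p = 0.197), and TGFB1 minus GDF11 was 0.29 ± 0.16 (interval −0.05 to 0.63, adjusted p = 0.722).

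Zeb1 was lower on bright than on dim arrays by −0.51 ± 0.10 with the groups in the model (limma adjusted p = 0.000784), and the Zeb1 differences were larger once that shift was in the model. The brightness term put Zeb1 at 1.00 ± 0.11 for TGFB1 (adjusted p = 3.17e-05) and 0.58 ± 0.10 for GDF11 (adjusted p = 0.00153) against serum-free medium. TGFB1 minus GDF11 was then 0.42 ± 0.09 (adjusted p = 0.0226). Within the bright arrays the groups did not overlap, with TGFB1 at 7.99 to 8.06, GDF11 at 7.58 to 7.66 and serum-free replicate 3 at 7.04. Within the dim arrays GDF11 replicate 1 at 8.13 lay above the 3 serum-free arrays at 7.42 to 7.61. The means of the bright arrays lay 0.99 with TGFB1 and 0.57 with GDF11 above that 1 serum-free array.

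Zeb2, the SMAD-interacting relative of Zeb1, was called with TGFB1, and its level moved with the brightness of the arrays. The detected probe, ILMN_1232121, read 5.28, 5.38, 5.32 and 5.33 with TGFB1, 4.25, 4.92, 4.81 and 5.12 with GDF11, and 4.47, 4.28, 5.38 and 4.21 in serum-free medium. The 4 lowest values of all, 4.21 to 4.47, were those of the 4 dim arrays. Serum-free replicate 3, the bright one, was level with the highest TGFB1 array. The TGFB1 difference was called (0.74 ± 0.24, 1.67-fold, limma adjusted p = 0.031), and that of GDF11 was 0.19 ± 0.24 (adjusted p = 0.615). Under the brightness term the TGFB1 difference was 0.08 (adjusted p = 0.781), and on bright arrays it was −0.05 from the single serum-free array. Its call was lost without serum-free replicate 1, 2 or 4 and without TGFB1 replicate 1, 2, 3 or 4, at adjusted p-values of 0.062 to 0.0928. Zeb2 was 0.88 ± 0.12 higher on bright than on dim arrays (adjusted p = 9.77e-05). TGFB1 minus GDF11 was 0.55 ± 0.24 (interval 0.04 to 1.06, adjusted p = 0.567), without overlap between these groups, while the groups of 9.65% of all probes did not overlap in that comparison. Zeb2 probe ILMN_2419650, detected on 0 arrays, lay at 4.16 to 4.69.

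Twist2 was the EMT factor called lower with TGFB1, and its level moved with the brightness of the arrays. TWIST2 is a basic helix-loop-helix factor active in mesenchymal tissues. Its levels were 5.32, 5.49, 5.36 and 5.76 with TGFB1, 7.14, 5.58, 5.46 and 6.01 with GDF11, and 6.51, 6.85, 6.06 and 6.65 in serum-free medium. Every TGFB1 array lay below every serum-free array, and the GDF11 arrays spanned nearly the whole range. The 4 dim arrays held the 4 highest Twist2 values, at 6.51 to 7.14. Raw signals averaged 127 units with TGFB1, 132.7 with GDF11 and 124.3 in serum-free medium. By these means Twist2 was lower with TGFB1 than in serum-free medium only after normalization. Normalized Twist2 was 2.05-fold lower with TGFB1 than in serum-free medium (−1.04 ± 0.30, interval −1.68 to −0.39, limma adjusted p = 0.0201). The GDF11 difference was −0.47 ± 0.30 (interval −1.12 to 0.17, adjusted p = 0.31).

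The Twist2 probe was lower on bright than on dim arrays by −1.04 ± 0.20 (limma adjusted p = 0.000869). In the model with the brightness term the Twist2 difference was −0.26 for TGFB1 (adjusted p = 0.531) and 0.04 for GDF11 (adjusted p = 0.926) against serum-free medium. On the bright arrays the TGFB1 difference from the single serum-free array was −0.58, all 4 TGFB1 arrays lying below it. The call was lost without serum-free replicate 2 or 4 and without TGFB1 replicate 1 or 3, at adjusted p-values of 0.0526 to 0.0624. Without GDF11 replicate 1, the array with the highest Twist2 value, the GDF11 difference was called (−0.84, adjusted p = 0.00677). That array is the only dim one with GDF11, so this fit sets bright GDF11 arrays against mostly dim serum-free arrays. Median scaling put the TGFB1 difference at −0.19 (adjusted p = 0.416). Twist1, the better known family member in EMT, gave 4.22, 4.22, 4.26 and 4.40 with TGFB1, 4.35, 4.22, 4.27 and 4.38 with GDF11, and 4.39, 4.35, 4.48 and 4.76 in serum-free medium. Nearly all of these values lie at the level of undetected probes, and without the filter the TGFB1 difference was −0.22 (adjusted p = 0.138) and the GDF11 difference −0.19 (adjusted p = 0.31).

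Ets1, an ETS-domain activator of matrix protease and invasion genes, rose with both ligands on the probe that was detected throughout. Probe ILMN_3157483 read 9.97, 9.72, 9.85 and 9.95 with TGFB1, 10.39, 9.74, 9.87 and 9.88 with GDF11, and 9.12, 9.34, 8.57 and 9.04 in serum-free medium. Every array of either ligand lay above every serum-free array. Ets1 on this probe rose 1.81-fold with TGFB1 (0.86 ± 0.18, limma adjusted p = 0.00329) and 1.94-fold with GDF11 (0.96 ± 0.18, adjusted p = 0.00402). TGFB1 minus GDF11 was −0.10 ± 0.18 (adjusted p = 0.891). Its interval, −0.48 to 0.28, does not show that the ligands act alike on Ets1.

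The Ets1 rise grew with the brightness term, to 1.29 ± 0.13 for TGFB1 (limma adjusted p = 1.44e-05) and 1.24 ± 0.11 for GDF11 (adjusted p = 1.16e-05), and TGFB1 minus GDF11 became 0.04 (adjusted p = 0.933). This probe was lower on bright than on dim arrays by −0.58 ± 0.11 (adjusted p = 0.00104). On the bright arrays the TGFB1 mean lay 1.30 and the GDF11 mean 1.26 above serum-free replicate 3. On the dim arrays GDF11 replicate 1 was 1.23 above the mean of the 3 serum-free arrays.

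Another Ets1 probe, ILMN_2770739, read 5.21, 5.13, 5.03 and 5.24 with TGFB1, 4.30, 4.91, 4.80 and 5.32 with GDF11, and 4.19, 4.16, 4.65 and 4.12 in serum-free medium. Its TGFB1 arrays lay above all serum-free arrays, and the 4 dim arrays gave its 4 lowest values. The TGFB1 rise was called (0.87 ± 0.19, limma adjusted p = 0.00458) and the GDF11 difference was not (0.56 ± 0.19, adjusted p = 0.0854). After the brightness term these were 0.42 (adjusted p = 0.0869) and 0.26 (adjusted p = 0.284). Without GDF11 replicate 1 the GDF11 difference of this probe was called (0.73, adjusted p = 0.00556), and likewise without serum-free replicate 3 (0.68, adjusted p = 0.0199). Each left-out array was the only one of its group in its brightness set. With the groups in the model, this probe was 0.60 ± 0.13 higher on bright than on dim arrays. The third Ets1 probe, ILMN_1236290, was detected on 2 TGFB1, 1 GDF11 and 2 serum-free arrays and stayed between 4.18 and 4.79. Its differences were 0.16 ± 0.15 for TGFB1 (adjusted p = 0.411) and −0.03 for GDF11 (adjusted p = 0.898). The stretches of transcript that the 3 probes read were not analysed here.

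**Figure D3:**
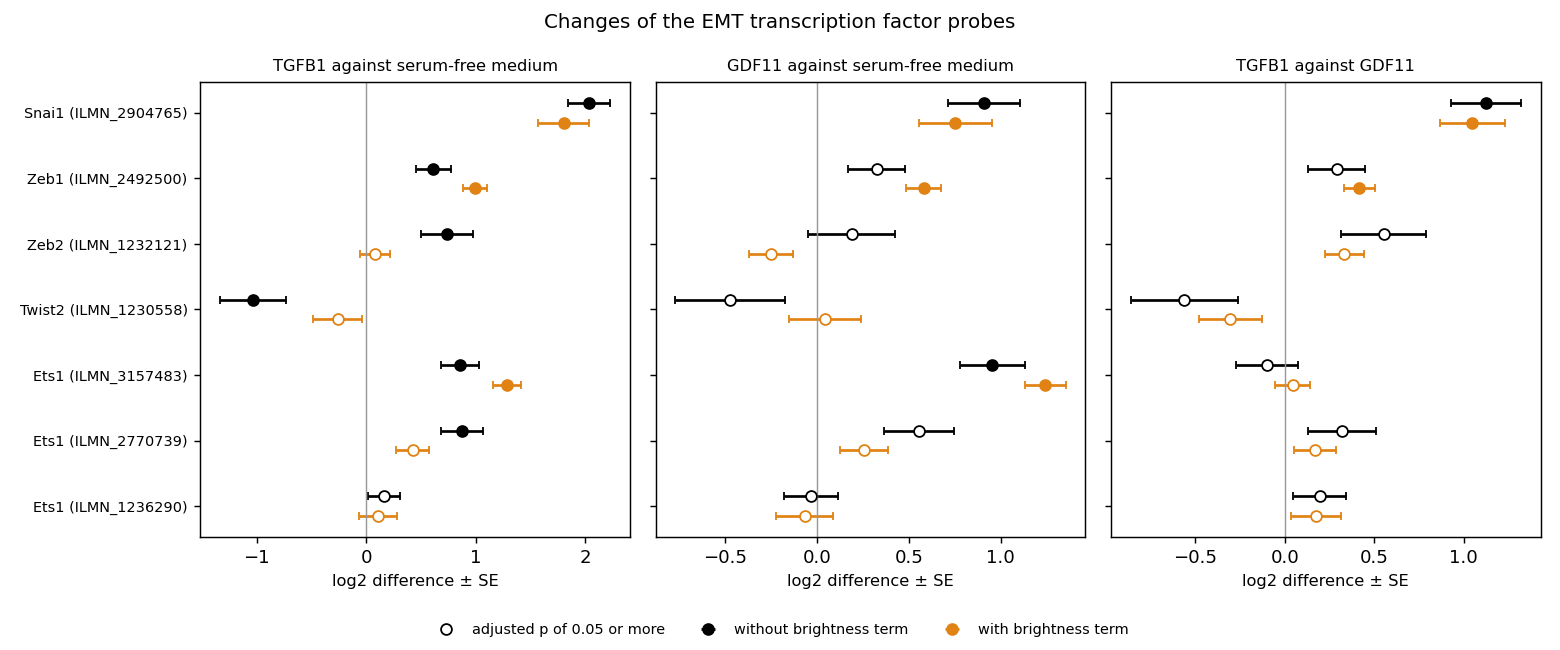
Log2 difference with its SE for the 7 tested EMT factor probes in the 3 comparisons (panels), without the brightness term in black and with it in orange, filled where the limma adjusted p was under 0.05. Snai1 at 2.03 with TGFB1 and 0.91 with GDF11 stayed called with the term, as did Zeb1 with TGFB1 and Ets1 (ILMN_3157483) with both ligands, while Zeb2 and Twist2 with TGFB1 moved toward 0.

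By their levels across the groups the factors took different orders. Snai1 was highest with TGFB1 (6.44 ± 0.19), then with GDF11 (5.31 ± 0.40), then in serum-free medium (4.40 ± 0.27, SD, n = 4 each), and all 3 differences were called. Zeb1 ran in the same order, at 8.03 ± 0.03, 7.74 ± 0.26 and 7.42 ± 0.27, with neighbours that did not differ beyond their spread. With the brightness term both neighbours differed, and in the authors' deposited values GDF11 differed from serum-free medium (adjusted p = 0.0483). Ets1 on ILMN_3157483 averaged 9.87 ± 0.11 with TGFB1 and 9.97 ± 0.29 with GDF11, against 9.02 ± 0.32 in serum-free medium. Twist2 ran the other way, at 5.48 ± 0.20, 6.05 ± 0.77 and 6.52 ± 0.34, and its neighbours did not differ beyond their spread. Zeb2 averaged 5.33 ± 0.04 with TGFB1, 4.78 ± 0.37 with GDF11 and 4.59 ± 0.54 in serum-free medium.

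Over the 12 arrays the genes most like Snai1 were Rin3, a guanine exchange factor of endosomes (Pearson r = 0.977), Atp10a, a phospholipid flippase (0.967), the orphan receptor Adgra1 (0.967), Timp1, an inhibitor of metalloproteases (0.967), and Ass1 of arginine synthesis (0.965). Of these, Ass1 was 3.28 ± 0.14 higher with TGFB1 and 1.92 ± 0.14 higher with GDF11 than in serum-free medium (limma adjusted p = 4.84e-09 and 2.44e-06), and TGFB1 minus GDF11 was 1.36 ± 0.14 (adjusted p = 0.000678). Timp1 was 0.76 ± 0.12 higher with TGFB1 (adjusted p = 0.000424), and its GDF11 difference was 0.26 ± 0.12 (adjusted p = 0.172). The genes most like Ets1 on ILMN_3157483 were the TGF-beta type I receptor Tgfbr1 (r = 0.973), the SMAD corepressor Skil (0.966), the growth factor receptor Egfr (0.963), the p53 target Dram1 (0.961) and the LIM-domain gene Lmo2 (0.954). Tgfbr1 was 1.33 ± 0.21 higher with TGFB1 and 1.49 ± 0.21 higher with GDF11 than in serum-free medium (adjusted p = 0.000545 and 0.000664), and TGFB1 minus GDF11 was −0.16 (adjusted p = 0.858). These correlations describe 12 arrays that share their 3 groups and their split into dim and bright arrays.

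Genes connected with the EMT factors were read from 8 lists, each gene by its brightest tested probe. Over 9116 genes, 15.1% were called higher and 18.1% lower with TGFB1 than in serum-free medium, with a median difference of −0.01. With GDF11 4.43% were called higher and 4.68% lower, with a median of −0.02, and between the ligands 0.406% were called higher and 0.351% lower with TGFB1. With the brightness term 7.51% were called higher and 7.19% lower with TGFB1, and 5.22% higher and 4.39% lower with GDF11. Leaving out single arrays moved the counts of several lists, most often upward without serum-free replicate 3 or GDF11 replicate 1, and the ranges stand beside the counts. Calls over all 12680 tested probes rose then too. With GDF11 they rose from 1057 to 4165 without GDF11 replicate 1, and with TGFB1 from 3960 to 5817 without serum-free replicate 3. A higher count of a list in those fits is therefore not by itself a trait of that list.

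Genes of the SMAD pathway, which receives both ligands, and of other inducers of EMT factors were called higher more often than lower. Of 26 tested SMAD pathway and upstream inducer genes, 14 were called higher and 2 lower with TGFB1 (median 0.47), and 9 higher and 1 lower with GDF11 (median 0.39). The immediate-early gene Fos was 1.96 ± 0.13 higher with TGFB1 and 1.40 ± 0.13 higher with GDF11 (limma adjusted p = 3.07e-07 and 2.32e-05). Its partner Junb was 1.35 and 1.46 higher, the SMAD corepressor Tgif1 1.35 and 1.19, and the Notch ligand Jag1 1.35 and 0.83, and each of these was called in both comparisons. The brightness term left 11 higher and 3 lower with TGFB1, and 8 higher and 2 lower with GDF11. With single arrays left out 12 to 16 were higher and 1 to 3 lower with TGFB1, and 8 to 14 higher and 0 to 2 lower with GDF11, the 14 without serum-free replicate 3.

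With TGFB1, other transcription factors were called higher in small numbers, near the 15.1% of all genes. Of 11 tested related EMT factors, 2 were called higher and 1 lower with TGFB1, and 2 higher and 0 lower with GDF11, at medians of 0.24 and 0.01. Sox9, a factor of progenitor and cartilage cells, was 1.32 ± 0.20 higher with TGFB1 and 1.18 ± 0.20 higher with GDF11 (limma adjusted p = 0.000395 and 0.00249). The forkhead factor Foxq1 was 0.54 and 0.64 higher (adjusted p = 0.0192 and 0.0215). The homeobox factor Msx1 was −0.62 ± 0.13 with TGFB1 (adjusted p = 0.00384). Of 10 tested ETS relatives of Ets1, 2 were called higher with TGFB1 and 1 with GDF11, and 0 were called lower. Gabpa, an activator of mitochondrial genes, was 0.70 and 0.51 higher with TGFB1 and GDF11 (adjusted p = 0.000683 and 0.0148), and Elk3 was 0.78 higher with TGFB1 (adjusted p = 0.0111). Under the brightness term 4 related EMT factors were higher and 1 lower with TGFB1, where 7.51% of all genes were higher and 7.19% lower. With GDF11 3 were higher and 0 lower, where 5.22% of all genes were higher. Of the ETS relatives, the term gave 2 higher and 0 lower with each ligand. With single arrays left out, 1 (without serum-free replicate 2 or TGFB1 replicate 1) to 4 (without serum-free replicate 4 or GDF11 replicate 1) related EMT factors were higher with TGFB1. For GDF11 the range was 1 (without serum-free replicate 2 or GDF11 replicate 4) to 3 higher and 0 to 2 lower, both highs without GDF11 replicate 1. Of the ETS relatives, 2 to 4 were higher with TGFB1, the 4 without serum-free replicate 3 or GDF11 replicate 1, and 0 (without GDF11 replicate 2) to 2 (without GDF11 replicate 1) with GDF11.

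After quantile normalization, epithelial transcription factors fell where they were called. Of 11 tested, 4 were lower with TGFB1 and 2 with GDF11, 0 were called higher, and the medians were −0.47 and −0.39. Cdx2, an intestinal homeobox factor, was −2.02 ± 0.14 with TGFB1 and −1.68 ± 0.14 with GDF11 (limma adjusted p = 3.07e-07 and 5.79e-06), and Klf5, a zinc-finger factor of epithelial growth, was −1.30 and −0.78 (adjusted p = 3.27e-05 and 0.00545). The forkhead factors Foxa2 and Foxa1 were −1.28 and −0.995 with TGFB1 (adjusted p = 0.00213 and 0.0164). With the brightness term Foxa2 was −1.94 (adjusted p = 3.97e-06) and Foxa1 −0.23 (adjusted p = 0.431), and 4 of 11 were called lower with each ligand. With single arrays left out 3 to 6 were lower with TGFB1 and 2 to 4 with GDF11, both highs without GDF11 replicate 1, and 1 was higher with TGFB1 without serum-free replicate 3. Median scaling gave 1 higher and 1 lower with TGFB1 (median 0.12), and 0 higher and 0 lower with GDF11 (median −0.004). Of all 12680 tested probes it called 5562 higher and 123 lower with TGFB1, and 180 higher and 13 lower with GDF11.

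Epithelial genes that EMT factors can repress were called in both directions at 4 h. Of 24 tested, 8 were called higher and 8 lower with TGFB1 (median 0.22), and 1 higher and 1 lower with GDF11 (median 0.21). Cdh1, the textbook target of SNAI1 and ZEB1, was 0.90 ± 0.24 higher with TGFB1 (limma adjusted p = 0.0131), and 0.25 with the brightness term (adjusted p = 0.316). The claudin Cldn4 was detected on 0 serum-free arrays and was higher by at least 11.7-fold with TGFB1 and by at least 5.41-fold with GDF11 (adjusted p = 4.17e-09 and 2.39e-07), these folds being taken against the lowest detected signal of each array. Lower with TGFB1 were the mucin Muc1 (−1.21 ± 0.20, adjusted p = 0.000607), the polarity gene Llgl2 (−0.95 ± 0.14, adjusted p = 0.000249) and the keratin Krt19 (−0.59 ± 0.11, adjusted p = 0.00176). Under the brightness term 2 of 24 were higher and 6 lower with TGFB1. Median scaling gave 12 higher and 0 lower with TGFB1, where 5562 of all 12680 tested probes were called higher and 123 lower. Leaving out GDF11 replicate 1 gave 9 higher and 3 lower with GDF11, leaving out serum-free replicate 3 gave 7 and 3, and leaving out any other array gave 1 and 0. Without GDF11 replicate 1, calls with GDF11 over all 12680 tested probes rose to 4165 as well. The summed normalized signal of the luminal marker probes ran from 23716 to 26588 with TGFB1, 15244 to 25048 with GDF11 and 12213 to 22290 in serum-free medium, and its part in these differences was not tested. Krt8, Krt18, Krt19 and Muc1 are in both lists, so the sum is not independent of these differences. Of 7 tested luminal markers 4 were called higher and 3 lower with TGFB1, and 1 and 2 with the brightness term.

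Mesenchymal genes were mostly higher where they were called. Of 21 tested, 13 were called higher and 1 lower with TGFB1 (median 0.59), and 6 higher and 0 lower with GDF11 (median 0.50). The fibronectin receptor gene Itga5 was 1.91 ± 0.17 higher with TGFB1 and 1.09 ± 0.17 higher with GDF11 (limma adjusted p = 2.92e-06 and 0.0011), and TGFB1 minus GDF11 was 0.82 (adjusted p = 0.0381). Cald1, an actin-binding protein, was 1.29 and 1.006 higher, the matricellular gene Ccn2 0.87 and 0.55, and the hyaluronan receptor Cd44 0.70 and 0.62, and each was called with both ligands. Vim, which encodes the intermediate filament vimentin, was at 0.44 ± 0.20 with TGFB1 (adjusted p = 0.0971) and 0.50 ± 0.20 with GDF11 (adjusted p = 0.124). Under the brightness term 9 of 21 were higher and 0 lower with TGFB1, and 6 higher and 0 lower with GDF11. With single arrays left out 10 to 14 were higher with TGFB1, and 2 (without GDF11 replicate 3) to 11 (without serum-free replicate 3) with GDF11, with 10 higher and 1 lower without GDF11 replicate 1, 3 higher without serum-free replicate 2 and 4 without each of the other arrays. The summed signal of the fibroblast marker probes was 239 to 249 with TGFB1, 238 to 251 with GDF11 and 236 to 272 in serum-free medium. Of these 12 markers 8 were detected on no array, so the sum lies largely at background and could hardly show a change.

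**Figure D4:**
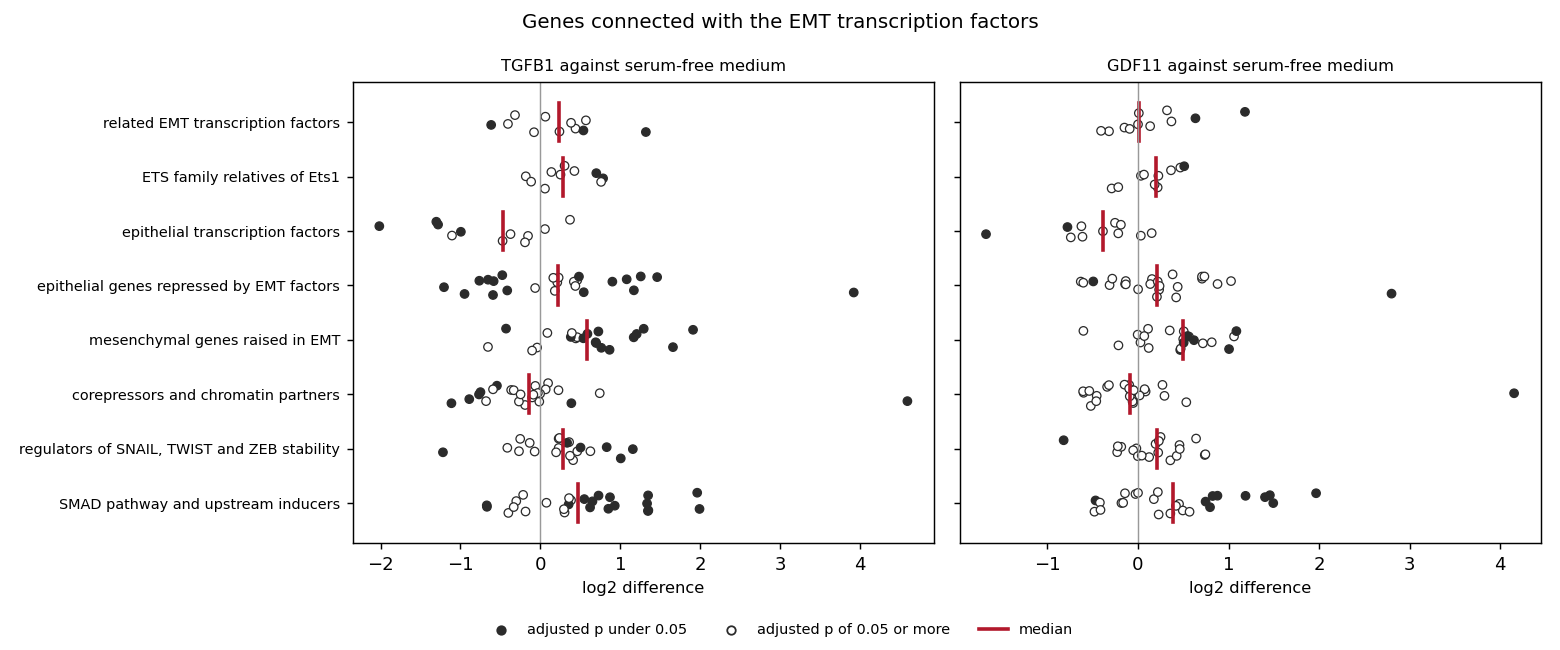
Log2 difference of each tested gene in 8 lists connected with the EMT factors (points, filled where the limma adjusted p was under 0.05) and the median of each list (red bar), for TGFB1 and for GDF11 against serum-free medium. Mesenchymal and SMAD pathway genes had medians of 0.59 and 0.47 with TGFB1, and epithelial transcription factors had a median of −0.47.

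Genes listed as corepressors and chromatin partners were called with TGFB1 at a share near that of all genes. Of 24 tested corepressors and chromatin partners, 2 were called higher and 5 lower with TGFB1 (median −0.15), and 1 higher and 0 lower with GDF11 (median −0.09). The higher one with both ligands was Lmcd1, a LIM-domain cofactor that represses GATA factors. A link of Lmcd1 with the EMT factors was not tested. Lmcd1 was 4.59 ± 0.18 higher with TGFB1 and 4.15 ± 0.18 higher with GDF11 (limma adjusted p = 2.58e-09 and 2e-08). The acetyltransferase Ep300 (−1.11, adjusted p = 0.00528), the H3K27 methyltransferase Ezh2 (−0.89, adjusted p = 0.00645) and Parp1 (−0.75, adjusted p = 0.0108) were lower with TGFB1. With the brightness term these were −0.40 (adjusted p = 0.0469), −0.36 (adjusted p = 0.123) and −0.25 (adjusted p = 0.221). The term gave 3 of 24 higher and 1 lower with TGFB1, and 2 higher and 0 lower with GDF11. Median scaling gave 9 higher and 0 lower with TGFB1, where 5562 of all 12680 tested probes were called higher and 123 lower. With GDF11, leaving out GDF11 replicate 1 gave 2 higher and 7 lower, and leaving out serum-free replicate 3 gave 1 and 5. With TGFB1 the lower calls ranged from 3 (without serum-free replicate 1 or 4 or TGFB1 replicate 1 or 3) to 7, and the higher ones from 1 (without serum-free replicate 2 or 4 or any TGFB1 array) to 3.

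Of 20 tested genes that control the stability of SNAIL, TWIST and ZEB proteins, 5 were called higher and 1 lower with TGFB1, and 0 higher and 1 lower with GDF11. The lower one was Ctdspl, a small phosphatase, at −1.22 ± 0.15 with TGFB1 and −0.82 ± 0.15 with GDF11 (limma adjusted p = 4.93e-05 and 0.00329). Axin2, a scaffold of the beta-catenin destruction complex, was 0.83 ± 0.15 higher with TGFB1 (adjusted p = 0.00155). The ubiquitin ligase gene Cop1 and the deubiquitinase gene Psmd14 were 1.005 and 1.16 higher with TGFB1 (adjusted p = 0.0123 and 0.0187), and 0.31 and 0.20 with the brightness term (adjusted p = 0.321 and 0.525). Under the term 2 of the 20 were called higher and 1 lower with TGFB1, and 1 higher and 1 lower with GDF11. The higher calls with TGFB1 ranged from 2 (without serum-free replicate 4) and 3 (without serum-free replicate 2 or TGFB1 replicate 1 or 3) to 7 (without serum-free replicate 3). With GDF11 there were 6 higher without serum-free replicate 3 and 4 without GDF11 replicate 1. Protein levels were not measured, so neither the stability nor the amount of the EMT factor proteins can be read from these arrays.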

How the data were processed

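Total RNA of 12 samples was read on 1-colour Illumina beadchips. The deposited non-normalized table gives, per the file headers, an intensity per probe and array, a detection p-value, a bead number (another measure) and the standard error over beads, itself an intensity. The values the authors processed and deposited look like log2, with base and transformation not given in the sources used here. The submitters' processing notes name lumi. Symbols were matched to RefSeq (GRCm38.p6, for names alone): of 18138, 14307 were current, 2906 matched by synonym and 904 were kept as given, and 31 probes stayed unnamed.

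Intensities were background corrected, given an offset of 16, quantile normalized and put on a log2 scale with neqc. Probes were tested if at least 4 arrays had a detection p under 0.05. Group means were fitted per probe over all 12 arrays with lmFit and eBayes (R 4.3.3, limma 3.58.1), with Benjamini-Hochberg adjustment per comparison. Python 3.11.15 and matplotlib 3.10.9 drew the figures. The steps were tested on simulated data. List genes were read by their brightest probe, and up to 4 called genes with the smallest p per list were named, plus Cdh1, Vim and Cldn4. For Snai1 and Ets1 the 5 genes with the highest Pearson r were named. The members, lists, tests and brightness term were chosen with earlier results of these data known. The number of arrays limits the precision. Alternatives were other filters, offsets, normalizations, the authors' values, brightness, left-out arrays, a replicate block and array weights.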

Additional observations from a re-analysis of the deposited data

Results flagged for a closer look

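Among the 21 groups of 4 values formed by the 7 tested EMT factor probes, 2 held an array far from the other 3, where chance gives about 1 such group in 20. The Ets1 probe ILMN_2770739 read 4.65 on serum-free replicate 3, against 4.12 to 4.19 on the other serum-free arrays, a gap of 0.876 of the range of its group. Serum-free replicate 3 is the bright array of its group. The Zeb1 probe ILMN_2492500 read 8.13 on GDF11 replicate 1, against 7.58 to 7.66 on the other GDF11 arrays, a gap of 0.854 of the range. GDF11 replicate 1 is the dim array of its group.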

How the results depend on the processing

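Snai1, Zeb1 and Ets1 (ILMN_3157483) with TGFB1 kept direction and call under all settings tried, and Ets1 (ILMN_3157483) with GDF11 under all but the dim arrays alone. The Snai1 rise with GDF11 lost its call under median scaling (0.84, limma adjusted p = 0.195), cyclic loess (0.41, 0.2), the authors' values (0.21, 0.0751), both of these with the brightness term (0.52, 0.125, and 0.16, 0.192) and either brightness set alone. Those sets leave 1 serum-free (bright) or 1 GDF11 (dim) array, which the fit takes to vary like the other groups, so a call lost there says nothing about stability. Zeb1 with GDF11 gained a call with the authors' values (0.26, 0.0483) and wherever the term was used. Median scaling moved the median of all probes by 0.655 with TGFB1, 0.384 with GDF11 and 0.28 between the ligands, ended the call of Snai1 between the ligands (1.42, 0.0619), and put Msx1, Llgl2, Krt19, Ezh2 and Parp1 with TGFB1 and Llgl2 with GDF11 above 0. Of 30 named list genes called with TGFB1, 13 stayed called under all settings other than the single brightness sets, and of 17 with GDF11, 5 did (Cldn4, Fos, Itga5, Junb and Lmcd1). The cause of these changes was not tested. In the counts that follow, ligand and brightness are harder to tell apart without serum-free replicate 3 or GDF11 replicate 1. Those are the only bright serum-free array and the only dim GDF11 array.

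Called probes with TGFB1 numbered 3960, and 1670 with the brightness term, 1829 on bright arrays, 1154 with the replicate block and the term, 6284 with array weights, 2072 with cyclic loess and the term, 1933 with the authors' values and the term, and 2539 (without serum-free replicate 1) to 5817 (without serum-free replicate 3) with single arrays left out. With GDF11 they numbered 1057, and 193 under median scaling, 641 on bright arrays, 0 on dim arrays (limma, 1 GDF11 array against 3 serum-free arrays, with 1501 at an unadjusted p under 0.05), 5627 with array weights, and 505 (without GDF11 replicate 4) to 4165 (without GDF11 replicate 1). Between the ligands they numbered 80, and 36 under median scaling, 154 with cyclic loess, 248 with the term, 605 on bright arrays, 52 with the replicate block, 161 with the block and the term, 740 with array weights, 630 with cyclic loess and the term, 426 with the authors' values and the term, and 23 to 111 with single arrays left out.

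Of the 7 EMT factor probes, 6 were called with TGFB1, and 3 with the term, on bright arrays, with the block and the term, or with the authors' values and the term, and 4 to 6 with single arrays left out. With GDF11 the 2 calls became 1 under median scaling or cyclic loess, 0 on dim arrays, 5 with array weights, and 2 to 4 with single arrays left out. Array weights and some left-out arrays raised the calls over all tested probes as well, as given above. Between the ligands the 1 call became 0 under median scaling, 2 with the term, alone or with cyclic loess or the authors' values, 3 on bright arrays or with array weights, and 0 or 1 with single arrays left out.

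Among the tested EMT factor probes, signs turned for differences that had no call, except Zeb2 with TGFB1 on bright arrays (−0.054). With GDF11, Zeb2 was −0.087 with cyclic loess, −0.251 with the term, −0.432 on bright and −0.07 on dim arrays, −0.304 with the block and the term, −0.247 with cyclic loess and the term and −0.066 with the authors' values and the term. Twist2 with GDF11 was 0.052 under median scaling, 0.044 with the term, 0.469 on dim arrays, 0.039 with the block and the term, 0.012 with cyclic loess and the term and 0.047 with the authors' values and the term. Ets1 ILMN_1236290 with GDF11 was 0.006 without background correction, 0.018 with the authors' values, 0.004 with these and the term, and −0.108 to 0.083 with single arrays left out. Ets1 ILMN_3157483 between the ligands was 0.322 under median scaling, 0.043 with the term, 0.039 on bright arrays and with the block and the term, 0.028 with array weights, 0.052 with cyclic loess and the term, 0.062 with the authors' values and the term, and −0.177 to 0.039 with single arrays left out.

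The replicate number was also used as a block. Of 12 pairs of arrays with the same number, 3 had correlated deviations over 0.1 (r from −0.3 to 0.58). For 5 of 12 arrays the highest correlation was at the same number. Replicate 1 of serum-free medium and GDF11, both dim, gave 0.41, and replicate 3 of these groups, both bright, gave 0.58. Replicates 2 and 4 of these groups, each a dim and a bright array, gave −0.302 and −0.227. Between these groups, positive values thus came only where number and brightness both matched. Pairing by number was not tested apart from brightness. The replicate block gave 4213, 1023 and 52 called probes in the 3 comparisons, and 6, 2 and 1 EMT factor probes. Probes near background, those of Zeb2, Twist1, Snai1 ILMN_1241355 and Ets1 ILMN_2770739 and ILMN_1236290, limit what can be seen at this signal.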
